A study of Homo sapiens with 179 samples.

Results

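Expression of 10 genes was examined in the human embryonic stem cell line H1, because a rise of such genes in an undifferentiated culture is read as a sign of spontaneous differentiation. They are T, EOMES, MIXL1, GSC, MESP1, SOX17, GATA6, CER1 and HAND1, which regulate the early germ layers, and the receptor gene KDR. Members were chosen by symbol, and all 10 were found among the 19084 genes of the deposited tables. These members, and the marker lists used below, were picked with earlier results of these data known. Every library came from H1, an established line, cultured with Matrigel as substrate and E8 as medium, and no differentiation treatment is named in the labels. A TruSeq kit was used for 3 libraries of the group H1p16 and 3 of the group H1p43. The others were made by LM-Seq, which isolates mRNA on oligo-dT and starts reverse transcription from random hexamers. LM-Seq comprised 95 libraries in Lane 1, 48 in Lane 2, 24 in Lane 3 and 6 in Lane 4. The labels do not say what p stands for or whether replicates are separate cultures, and the p-values below may therefore reflect technical spread alone.

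In the embryo, mesendoderm cells leave the pluripotent epiblast through the primitive streak, under NODAL, WNT and BMP signals, and give rise to mesoderm and endoderm. T, EOMES, MIXL1 and GSC are transcription factors of the streak. MESP1 and HAND1 mark early mesoderm, SOX17 and GATA6 endoderm, and CER1 encodes a secreted antagonist of NODAL and BMP. KDR, also called VEGFR2, is the main signalling receptor for VEGFA on endothelial cells; it marks early mesoderm, and undifferentiated human embryonic stem cells also express it.

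TruSeq libraries held at least 23680509 expected counts and Lane 4 libraries at least 15780048. The minimum was 4028604 in Lane 3, 2005728 in Lane 2 and 1040667 in Lane 1, where the largest library held 1539268. LM-Seq libraries are numbered, and all 48, 24 and 6 numbers of Lanes 2, 3 and 4 also occur in Lane 1, so the lanes are not independent sets. All 12 genes of a pluripotency list had a mean of at least 1 TPM (a level per transcript length, scaled to the library total) in every group, and the lowest group mean of DNMT3B was 773 TPM. The summed TPM of that list was 8906 to 9116 in H1p16, 7185 to 7217 in H1p43 and 12157 to 12917 in Lane 4. The higher sum in Lane 4 did not hold for every gene. In Lane 4 against TruSeq, where 71.3% of all tested genes were called, 8 of the 12 rose and 2 fell. The log2 fold change (edgeR, ± SE) was 2.09 ± 0.21 for L1TD1. It was -0.54 ± 0.05 for POU5F1 and -0.69 ± 0.08 for SOX2, the 2 that fell.

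The members fell into 3 ranges of level. KDR had at least 1 count in every library. CER1 had one in 68 of 95 libraries of Lane 1, 41 of 48 of Lane 2, 22 of 24 of Lane 3 and in all of Lane 4 and TruSeq. The other 8 were near the limit of counting: T and EOMES were detected in 52 libraries of the series each, MIXL1 in 44, GSC and GATA6 in 25 each, MESP1 in 8, HAND1 in 6 and SOX17 in 1. By mean TPM, KDR was highest in all 6 groups, followed by CER1 and then MIXL1. KDR and CER1 ranges never overlapped within a group. CER1 and MIXL1 ranges were apart in H1p16, H1p43 and Lane 4 and overlapped in Lanes 1 to 3. Below MIXL1, neighbours in the order overlapped in all groups except MIXL1 and EOMES in H1p16, MIXL1 and GSC in H1p43, and GATA6 and SOX17 in H1p43.

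The promoter windows of KDR and CER1 are shown because only these members had enough counts for the main tests, and because the base composition of the windows differs. Each runs from 250 bases before to 50 bases after the annotated start (RefSeq, GRCh38.p14). KDR lies at chr4:55125546-55125845 and CER1 at chr9:14722684-14722983, both on the minus strand. Capitals mark GGGCGG on either strand, the core of a GC box.
KDR: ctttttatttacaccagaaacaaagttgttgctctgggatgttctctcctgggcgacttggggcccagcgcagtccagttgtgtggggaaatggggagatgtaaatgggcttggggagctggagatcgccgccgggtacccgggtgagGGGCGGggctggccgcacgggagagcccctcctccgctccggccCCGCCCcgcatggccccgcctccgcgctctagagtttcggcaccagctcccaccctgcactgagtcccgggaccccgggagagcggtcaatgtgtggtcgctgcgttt
CER1: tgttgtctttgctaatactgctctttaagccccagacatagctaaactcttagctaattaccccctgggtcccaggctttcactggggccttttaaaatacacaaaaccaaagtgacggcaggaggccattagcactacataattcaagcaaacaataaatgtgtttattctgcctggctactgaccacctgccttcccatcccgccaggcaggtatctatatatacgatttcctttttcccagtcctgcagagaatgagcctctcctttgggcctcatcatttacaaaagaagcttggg
The KDR window held 65% G and C, 22 CpG dinucleotides, 2 GGGCGG matches and no TATAAA. Its observed over expected CpG ratio was 0.70. In the CER1 window these values were 45.3%, 3 CpG and a ratio of 0.20, with neither motif. Across 35116 RefSeq promoter windows of this length the median G and C content was 58.7% and the median CpG ratio 0.58, while 45% held GGGCGG and 11.5% held TATAAA on either strand. Windows were matched for 8 of the members. T, EOMES and GSC had 1 TATAAA match each, MIXL1 had 4 GGGCGG matches, HAND1 3, GSC 2 and T 1. The CpG ratio of the 6 others ranged from 0.64 in HAND1 to 1.01 in T, so CER1 had the lowest of the 8.

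KDR was lower in H1p43 than in H1p16. The H1p16 libraries stood at 76.05, 72.49 and 73.95 TPM and the H1p43 libraries at 40.81, 40.89 and 40.33 TPM. The ranges lay far apart, with means of 74.2 ± 1.79 and 40.7 ± 0.30 TPM (SD, n = 3 each). The log2 fold change from expected counts was -0.98 ± 0.03 (SE; adjusted p = 1.46e-15, edgeR quasi-likelihood test with Benjamini-Hochberg adjustment over all genes), and KDR was lower in 3 of 3 H1p43 libraries than in any H1p16 library. In this comparison 71.8% of 14574 tested genes were called, so a call was the usual outcome. In bulk RNA, fewer cells of a type and less RNA per cell cannot be told apart.

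All LM-Seq groups had KDR above H1p43. Lane 4 ranged from 81.81 to 90.91 TPM with a median of 85.4. The lowest, median and highest TPM were 80.76, 87.3 and 98.06 for Lane 3 and 73.14, 86.8 and 95.81 for Lane 2. Lane 1, the shallowest, spread most, at 70.18, 86.4 and 102.9 TPM. H1p43 overlapped none of these lanes, H1p16 lay below Lanes 3 and 4 and overlapped Lanes 1 and 2, and the lanes overlapped each other. Lane 4 lay above all 6 TruSeq libraries, as 53.9% of tested genes did not overlap in this comparison either. Lane 4 against all 6 TruSeq libraries gave a log2 fold change of 0.59 ± 0.18 (adjusted p = 0.00899, edgeR), in a comparison where 71.3% of 13827 genes were called. That value depends on the TruSeq libraries used: it was 0.17 ± 0.05 against H1p16 alone (adjusted p = 0.0028, edgeR) and 1.17 ± 0.05 against H1p43 alone (adjusted p = 9.67e-14, edgeR). The order of Lane 4 and H1p16 also depends on scaling. In CPM (counts scaled to the library total), KDR was at 217.0 ± 4.47 in H1p16 and 208.6 ± 8.01 in Lane 4, the reverse of the order in TPM and in the edgeR fit, with H1p43 lowest at 120.2 ± 1.00. Protocol, lane, depth and the source of the cells differ together here and cannot be told apart.

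**Figure D1:**
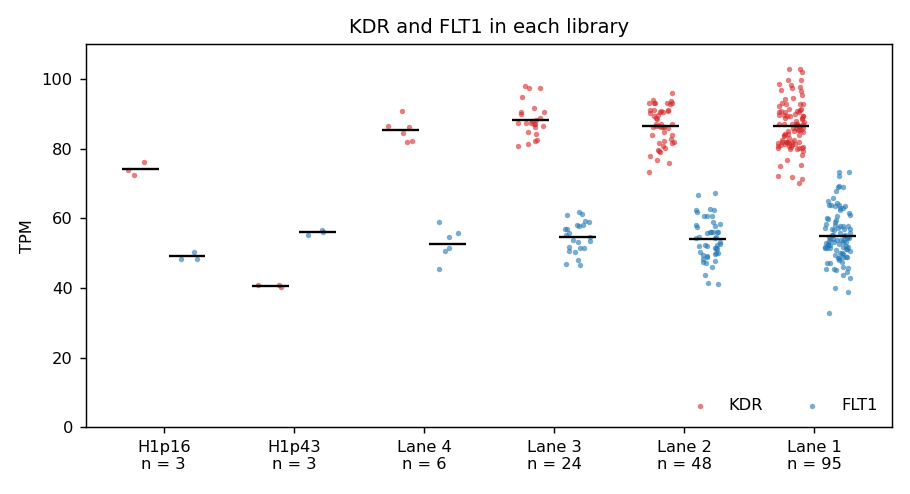
Levels of KDR (red) and FLT1 (blue) in TPM in every library, by group; each point is a library and each black bar a group mean. KDR lies at about 40.7 TPM in H1p43 and below FLT1 there, and above FLT1 in every library of the 5 other groups.

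Between LM-Seq lanes, no KDR difference passed the test. Against the same numbers in Lane 1, its log2 fold change was -0.02 ± 0.02 in Lane 2, -0.02 ± 0.03 in Lane 3 and 0.00 ± 0.05 in Lane 4 (edgeR adjusted p = 1.00 for each). That fit did not use the number as a block. Of all genes tested, 0.0% were called in Lane 2 (182 of 10120 had an unadjusted p under 0.05), 0.0% in Lane 3 (216 of 10871) and 0.0161% of 12419 in Lane 4, which is 2 genes. Libraries with the same number deviated together between lanes. With the number as a block there were 26 calls in Lane 2, 44 in Lane 3 and 13 in Lane 4. KDR was the only member fitted in each of these, with CER1 in Lane 4 alone, and neither was called. The other members had too few counts to be fitted. With this block the KDR values were -0.016 ± 0.016, -0.026 ± 0.020 and 0.0004 ± 0.038 (edgeR unadjusted p = 0.306, 0.212 and 0.992). Over Lane 1, the index of dispersion of KDR counts, which is 1 for counting noise alone, was 1.58, against a median of 2.08 over 469 genes with a mean count within 20% of that of KDR. KDR was thus less spread between libraries than most genes of like level, 14.5% of which had a lower index.

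A library number that was high for KDR in one lane tended to be high in the next. Over the 48 numbers in both Lane 1 and Lane 2, log2 CPM of KDR had Pearson r = 0.50 (permutation p = 0.00038, adjusted 0.00138) and Spearman rho = 0.45 (permutation p = 0.00173, adjusted 0.0057), two-sided with 100000 resamples and adjusted over 10120 genes. Without the 2 numbers farthest from the Lane 1 median, r was 0.34. The median r over all genes was 0.39, and 69.1% of genes passed, so a pass was again the usual outcome. The 3 genes most like KDR over these 48 numbers, among 7904 genes and by counts summed over both lanes, were CENPE (r = 0.61), CHD2 (r = 0.61) and TRAPPC6B (r = 0.59). These correlations describe libraries that share numbers, in lanes of different depth. No other member had enough counts for this measure.

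Most tested genes for other VEGF receptors and ligands did not follow KDR in the TruSeq comparison. FLT1, the receptor that binds VEGFA tightly but signals weakly, was at 49 ± 1.21 TPM in H1p16 and rose to 56 ± 0.68 TPM in H1p43 (log2 fold change 0.18 ± 0.02, adjusted p = 4.75e-06, edgeR). FLT4, the receptor for VEGFC, rose from 5.05 ± 0.25 to 8.01 ± 0.35 TPM (0.52 ± 0.06, adjusted p = 8.72e-07, edgeR). PGF, a ligand of FLT1, rose from 2.02 ± 0.31 to 4.81 ± 0.49 TPM (1.16 ± 0.14, adjusted p = 7.09e-07, edgeR). Over all 14574 genes tested in this comparison, 5305 were called as higher and 5155 as lower. Of 9 genes in a list of VEGF ligands and other receptors, 8 were tested, 6 rose and 1 fell, with a median log2 fold change of 0.17 beside 0.01 over all genes. The gene that fell was NRP1, a co-receptor (-0.77 ± 0.20).

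The ratio of KDR to FLT1 TPM was computed within each library. It was 1.51 ± 0.02 in H1p16, 0.726 ± 0.011 in H1p43 and 1.63 ± 0.14 in Lane 4 (SD). KDR exceeded FLT1 in 3 of 3 H1p16, 0 of 3 H1p43, 6 of 6 Lane 4, 24 of 24 Lane 3, 48 of 48 Lane 2 and 95 of 95 Lane 1 libraries. A ratio within a library shows unequal change, not which gene changed. In Lane 4 against TruSeq, VEGFB, a ligand of FLT1, fell by 1.64 ± 0.15 and FLT4 by 0.76 ± 0.16 on the log2 scale (adjusted p = 8.41e-08 and 0.000529, edgeR). Against H1p16 alone FLT4 fell by 0.49.

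Markers of endothelial cells, where KDR is best known, were mostly low. CDH5 and PECAM1, adhesion molecules that define endothelium, had group means of 0.085 to 0.377 and 0.27 to 0.349 TPM. TEK, an angiopoietin receptor, had group means of 23.8 to 27.4 TPM, so with FLT1 it made up most of the summed level of the list. CDH5 rose from 0.153 ± 0.11 to 0.377 ± 0.067 TPM in H1p43 (1.19 ± 0.39, adjusted p = 0.0107, edgeR), against the direction of KDR; without H1p16 replicate 2 the value was 1.83, and the call was lost without H1p16 replicate 3 (0.70, adjusted p = 0.0693, edgeR) or H1p43 replicate 1 (1.04, adjusted p = 0.0516). Among all genes tested between H1p43 and H1p16, 71.8% were called. Of 14 endothelial and blood genes, 11 were tested there, 4 rose and 2 fell, with a median log2 fold change of 0.18. Those that fell, as KDR did, were GATA2, a blood and endothelial transcription factor, from 0.467 ± 0.19 to 0.123 ± 0.04 TPM (-2.01 ± 0.38, adjusted p = 0.000132, edgeR), and TEK (-0.13 ± 0.04, adjusted p = 0.00405, edgeR). The TEK call was lost with limma on log2(TPM + 1) (-0.01, adjusted p = 0.781) and on log2(TPM + 0.1). ENG, a TGF-beta co-receptor, rose from 3.59 ± 0.71 to 6.33 ± 0.20 TPM (0.72 ± 0.10), and LMO2, a blood and endothelial cofactor, from 1.08 ± 0.33 to 2.37 ± 0.06 TPM (1.01 ± 0.21). The summed TPM of the list ran from 85.8 to 89.1 in H1p16, 96.8 to 99.4 in H1p43 and 75.1 to 87.9 in Lane 4, and its part in the KDR difference was not tested. Erythroid GATA1 had no count in Lanes 1, 3 and 4. In Lane 4 against TruSeq, where 71.3% of all tested genes were called, 8 genes of the list were tested, 0 rose and 2 fell. ENG fell by 1.77 ± 0.24 and TIE1, an endothelial receptor kinase, by 0.47 ± 0.20 on the log2 scale. The TIE1 call was lost when any 1 of 10 of the 12 libraries was left out (adjusted p = 0.0529 to 0.0811, edgeR) and against H1p16 or H1p43 alone.

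CER1 was the other member with steady counts. It stood at 2.46, 2.64 and 2.76 TPM in H1p16 (33, 46 and 45 counts) and at 3.74, 3.54 and 3.5 TPM in H1p43 (71, 59 and 72 counts). The H1p43 libraries were all above the H1p16 libraries, as the TPM ranges of 73.7% of tested genes did not overlap either. The log2 fold change was 0.34 ± 0.16 (adjusted p = 0.0618, edgeR), short of the threshold of 0.05. With limma on log2(TPM + 1) it was 0.34 ± 0.04 (adjusted p = 0.000339) and on log2(TPM + 0.1) 0.44 ± 0.05 (adjusted p = 0.000472), so that the call depends on the test. In CPM summed over the group, with an interval that covers counting error only, CER1 was 1.49 (95% exact Poisson interval 1.24 to 1.78) in H1p16 and 2.06 (1.79 to 2.37) in H1p43.

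LM-Seq libraries varied more in CER1. Lane 4 ranged from 1.15 to 3.61 TPM with a median of 1.75, and 2 of its 6 libraries had 27 counts each while the other 4 had 9 to 17. The median was 1.88 TPM in Lane 3, 1.86 in Lane 2 and 1.65 in Lane 1. Lane 4 against TruSeq gave a log2 fold change of -0.48 ± 0.32 (adjusted p = 0.189, edgeR) and against Lane 1 -0.62 ± 0.59 (adjusted p = 1.00). In Lane 1 the index of dispersion of CER1 was 1.28, close to the median of 1.35 over 477 genes of like level.

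Most tested genes of a primitive streak list fell in H1p43. NODAL, the streak-inducing ligand, stood at 10.1 ± 0.97 TPM in H1p16 and fell to 6.10 ± 0.36 TPM in H1p43 (log2 fold change -0.83 ± 0.09, adjusted p = 1.33e-07, edgeR). FGF8, a streak growth factor, fell from 2.90 ± 0.78 to 0.97 ± 0.07 TPM (-1.71 ± 0.27), and NKX1-2, a homeobox gene of streak and tail bud, from 16.2 ± 1.97 to 10.4 ± 0.45 TPM (-0.74 ± 0.10). Of the 15 genes of this list, which include NODAL, FGF8 and NKX1-2, 8 were tested, 1 rose and 6 fell. Their median was -0.77 beside 0.01 over all genes, of which 71.8% were called. The 1 that rose was TBX6, a T-box factor of presomitic mesoderm (0.37 ± 0.15, adjusted p = 0.0369, edgeR), a call lost with DESeq2 (adjusted p = 0.146), without H1p16 replicate 1 (log2 fold change 0.22) and without any 1 of the 3 H1p43 libraries. EVX1 and MSGN1 had no count in any library. In Lane 4 against TruSeq, where 71.3% of all tested genes were called, 7 of the list were tested, 2 rose and 1 fell. Among them were FST, an activin antagonist (1.35 ± 0.16), and TBX6 (-1.68 ± 0.33). On log2(TPM + 1), which understates changes of low genes, the values were -0.97 for FGF8 and -1.07 for TBX6 in these comparisons.

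**Figure D2:**
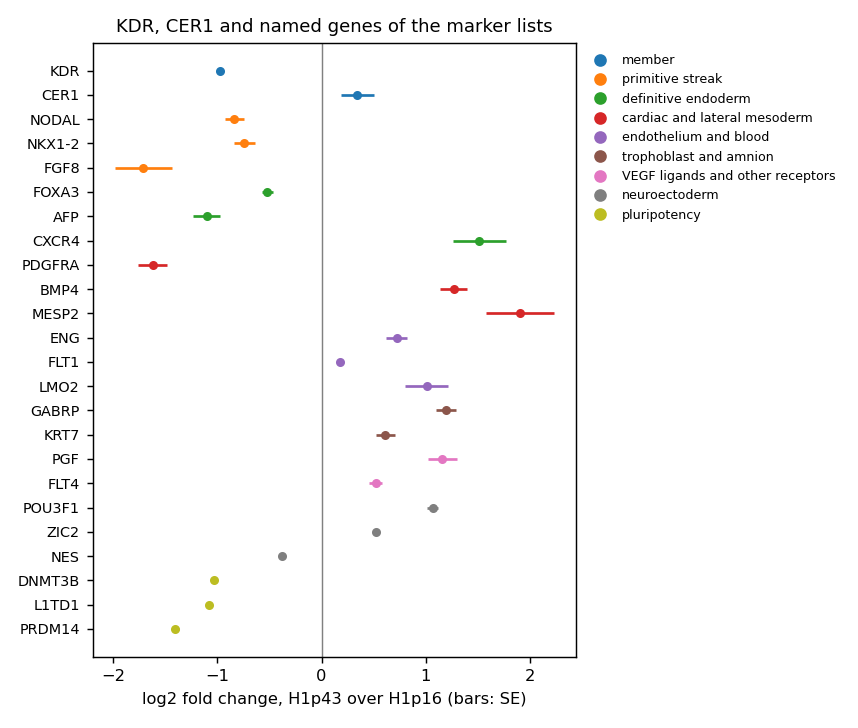
Log2 fold change of H1p43 over H1p16 from expected counts, with bars of 1 SE, for KDR, CER1 and genes of 8 marker lists; genes other than the members are the called ones with the lowest adjusted p. KDR lies at -0.98 and CER1 at 0.34, on either side of 0; the 3 primitive streak genes lie below 0 and the 3 VEGF genes, FLT1 counted here with endothelium, above it.

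T, EOMES, MIXL1 and GSC, the streak transcription factors, stayed at or below 11 counts per library in TruSeq. T had 4, 3 and 5 counts in H1p16 and 4, 7 and 3 in H1p43, and these ranges overlapped. EOMES had 2, 10 and 10 against 3, 2 and 5, also overlapping, and MIXL1 had 3, 10 and 11 against 7, 6 and 8. GSC had 1, 0 and 0 against 3, 4 and 10, and did not overlap. The TPM ranges of 73.7% of tested genes did not overlap either. GSC had too few counts to be among those genes, so that share gives no background for it. In TPM, MIXL1 was the highest of the 4 at 0.863 ± 0.42 in H1p16 and 0.657 ± 0.03 in H1p43, and the others had group means of at most 0.297 TPM.

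None of the 4 passed the filter on low counts, so the main test gives no value for them. Fitted without the filter, GSC had a log2 fold change of 3.34 ± 1.07 (adjusted p = 0.00779, edgeR, and 0.0345, DESeq2) and EOMES of -1.46 ± 0.59 (adjusted p = 0.034, edgeR, and 0.119, DESeq2). In these fits edgeR called 10686 of 17536 genes and DESeq2 9339 of 16516. T and MIXL1 were not called by either. With the filter, EOMES and MIXL1 were fitted only when H1p16 replicate 1 or H1p43 replicate 2 was left out. EOMES was called without the first (-1.82 ± 0.53, adjusted p = 0.0037, edgeR), in a fit that called 10441 of 14787 genes. It was not called without the second (-1.28 ± 0.60, adjusted p = 0.0714, edgeR), and MIXL1 was called in neither. As a ratio of summed CPM, GSC was 14.4-fold higher in H1p43, with a 95% exact counting interval of 2.26 to 601.4 that rests on 17 against 1 counts. EOMES was at a ratio of 0.385 (0.163 to 0.847), T of 0.988 (0.424 to 2.34) and MIXL1 of 0.741 (0.392 to 1.39). GSC and EOMES thus differed in direction, each on fewer than 25 counts in a group.

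In LM-Seq the 4 factors also stayed near 0. The summed counts in Lane 4 were 6 for T, 20 for EOMES, 6 for MIXL1 and 10 for GSC. In Lane 4 against TruSeq, MIXL1 had a ratio of 0.247 (0.0861 to 0.581) from 6 against 45 counts, and without the filter a log2 fold change of -1.67 ± 0.73 (adjusted p = 0.0576, edgeR). For EOMES (1.16, 0.628 to 2.09), GSC (1.03, 0.424 to 2.35) and T (0.427, 0.144 to 1.06) the interval held 1. Lane 4 was the lowest lane for MIXL1, at 0.0614 summed CPM against 0.155, 0.140 and 0.157 in Lanes 3, 2 and 1. H1p16 and H1p43 were at 0.289 and 0.214. Against Lane 1, Lane 4 had a ratio of 0.390 (0.128 to 1.02) for MIXL1 and 0.309 (0.103 to 0.776) for T. The highest single TPM in Lane 1 was 11.2 for MIXL1, which came from 4 counts in 1 library.

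**Figure D3:**
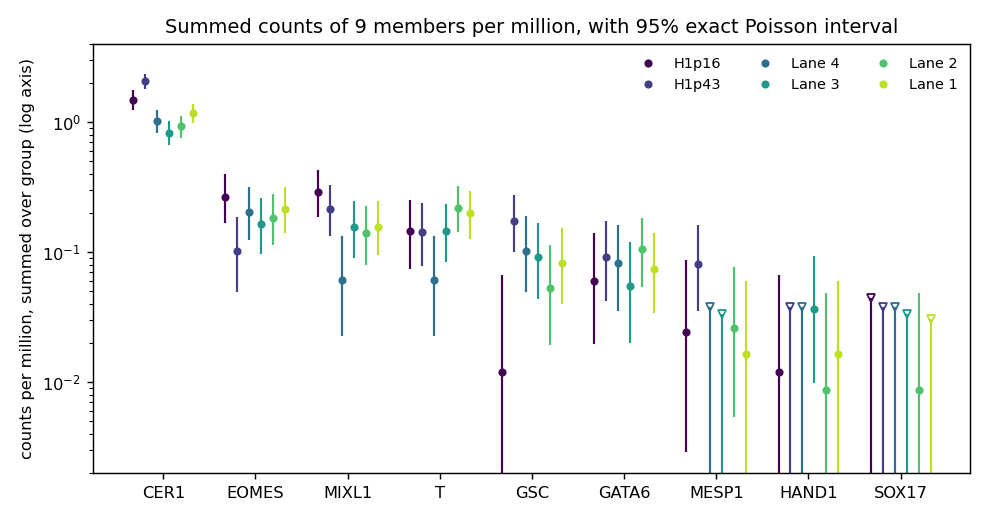
Counts of 9 members summed over each group, as CPM of that group on a log axis, with 95% exact Poisson intervals; open triangles are upper limits where the group had no count. CER1 lies between 0.83 and 2.06 CPM, the streak factors between 0.0121 and 0.289, and SOX17 at 0 in 5 of 6 groups.

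MESP1 and HAND1, bHLH factors of early mesoderm, were rarer still. MESP1 had 1, 0 and 1 counts in H1p16 and 2, 3 and 3 in H1p43, with a ratio of 3.39 (0.676 to 32.7). These do not overlap, and the TPM ranges of 73.7% of tested genes did not either. MESP1 had too few counts to be among those genes, so that share gives no background for it. MESP1 had 0 counts in Lanes 3 and 4, 3 in Lane 2 and 2 in Lane 1. Lane 4 against TruSeq without the filter gave an adjusted p = 0.0385 by edgeR but 0.401 by DESeq2, on 0 against 10 counts. That edgeR fit called 10436 of 17603 genes. HAND1 had 1 count in H1p16, 0 in H1p43 and in Lane 4, 4 in Lane 3, 1 in Lane 2 and 2 in Lane 1.

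Most tested genes of a wider mesoderm list rose in H1p43. Of 14 genes of cardiac and lateral mesoderm, 6 were tested, 5 rose and 1 fell, with a median of 1.16. In this comparison 71.8% of all 14574 tested genes were called, 5305 as higher and 5155 as lower. BMP4, a streak- and mesoderm-inducing ligand, rose from 2.16 ± 0.19 to 5.41 ± 0.23 TPM (1.27 ± 0.13), and MESP2, the near paralog of MESP1, from 0.327 ± 0.09 to 1.34 ± 0.38 TPM (1.90 ± 0.32). PDGFRA, a receptor of early mesoderm, fell from 1.35 ± 0.13 to 0.47 ± 0.03 TPM (-1.62 ± 0.14). The summed TPM of this list was 27.7 to 30.2 in H1p16 and 42.5 to 44.7 in H1p43. A single gene, TNNT2, had 22.8 ± 1.46 and 30.9 ± 0.99 TPM in these groups and made up most of the sum. The part of this list in the member values was not tested.

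SOX17 and GATA6 mark endoderm. SOX17 had 1 count in the whole series, in a Lane 2 library, out of 623282799 counts in all. It had 0 of 180965518 counts in TruSeq, which allows up to 0.0166 CPM (3 counts). GATA6 had 2, 2 and 1 counts in H1p16 and 7, 1 and 1 in H1p43, and the groups overlapped (ratio 1.52, 0.459 to 5.79). Of 13 genes of definitive endoderm, 4 were tested in TruSeq, 1 rose and 2 fell, while 71.8% of all genes tested there were called. FOXA3, a forkhead factor, fell from 24.6 ± 1.35 to 18.6 ± 0.70 TPM (-0.52 ± 0.05) and AFP, a fetal liver protein, from 5.04 ± 0.46 to 2.55 ± 0.37 TPM (-1.10 ± 0.13). CXCR4, a chemokine receptor of definitive endoderm, rose from 0.58 ± 0.23 to 1.74 ± 0.07 TPM (1.51 ± 0.26, but 0.80 on log2(TPM + 1)), and TTR had no count in any library.

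Markers of other fates were given beside these members, for H1p43 against H1p16, where 71.8% of all tested genes were called. Of 10 trophoblast and amnion genes, 3 were tested, 2 rose and 0 fell: GABRP, a GABA receptor subunit (1.2 ± 0.10), and KRT7, a keratin (0.61 ± 0.09). Of 9 neuroectoderm genes, 4 were tested, 3 rose and 1 fell. POU3F1 (1.06 ± 0.05) and ZIC2 (0.52 ± 0.03) were among those that rose, and the gene that fell was NES, an intermediate filament of neural progenitors, from 134.1 ± 3.70 to 111.6 ± 1.15 TPM (-0.37 ± 0.02). Of 12 pluripotency genes, all were tested, 0 rose and 11 fell, with a median of -0.55. PRDM14 (-1.40 ± 0.03) and DNMT3B, a DNA methyltransferase (-1.03 ± 0.02), fell by more than that median. The falls of POU5F1 (-0.16 ± 0.02), NANOG (-0.24 ± 0.03) and SOX2 (-0.29 ± 0.02) were smaller. The part of these shifts in the KDR difference was not tested.

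Detection of EOMES and MIXL1 went up from each lane to the next deeper one, and that of the other low members did not at every step. T went from 41.7% of libraries in Lane 3 to 33.3% in Lane 4, and MESP1, HAND1 and SOX17 had no count in Lane 4. TruSeq differs from the lanes in protocol as well as in depth. For T, 19 of 95 libraries had a count in Lane 1 (95% exact Clopper-Pearson interval 12.5 to 29.5%), 15 of 48 in Lane 2, 10 of 24 in Lane 3 and 2 of 6 in Lane 4, and 6 of 6 in TruSeq. EOMES was detected in 17, 15, 9 and 5 libraries of these lanes and GATA6 in 8, 7, 3 and 1. When each library was reduced by formula to a common total of 1040667 counts, the share expected for T was 17.4% in Lane 1, 19% in Lane 2, 13.8% in Lane 3 and 5.70% in Lane 4, and for EOMES 15.8%, 16.3%, 14.2% and 18.7%. CER1 was at 64.9%, 60.3%, 54.7% and 62.6% in the lanes, 79.3% in H1p16 and 88.7% in H1p43. The number of the 10 members with a count per library was 2.43 ± 0.96 in Lane 1, 3.04 ± 1.13 in Lane 2, 3.58 ± 0.97 in Lane 3, 4.33 ± 0.82 in Lane 4, 7.33 ± 0.58 in H1p16 and 8 in each H1p43 library.

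**Figure D4:**
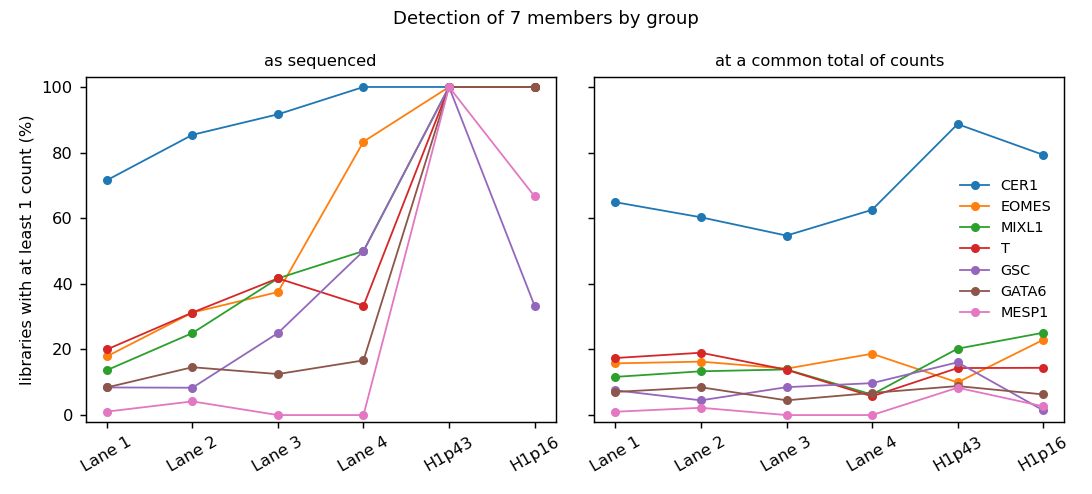
Share of libraries with at least 1 count of 7 members by group, as sequenced (left) and as computed for a common total of 1040667 counts (right). As sequenced, T had a count in 19 of 95 libraries in Lane 1, 10 of 24 in Lane 3, 2 of 6 in Lane 4 and 6 of 6 in TruSeq, which is another protocol. At the common total the shares of T, EOMES and CER1 did not rise from each lane to the next deeper one, while CER1 stayed higher in H1p16 and H1p43 than in the lanes.

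Most single libraries held few of the 8 low members. In Lane 1, 44 of 95 libraries had a count of none of them, 36 of 1, 13 of 2 and 2 of 3. Counts of a number did not always recur between lanes. Of 48 numbers, T was seen in both Lane 1 and Lane 2 in 7, in Lane 1 alone in 2 and in Lane 2 alone in 8. EOMES was seen in both in 2, in Lane 1 alone in 3 and in Lane 2 alone in 13, and CER1 in both in 31. The 6 numbers of Lane 4 occur in all 4 lanes and are lettered A to F here in ascending order. GATA6 had all 8 of its Lane 4 counts in number F, which had 1 count in Lane 3 and 1 in Lane 2, and the 5 other numbers had 0 in all 4 lanes. EOMES in number D had 8, 4, 2 and 0 counts in Lanes 4, 3, 2 and 1. D and F were also the numbers with 27 counts of CER1 in Lane 4.

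**Figure D5:**
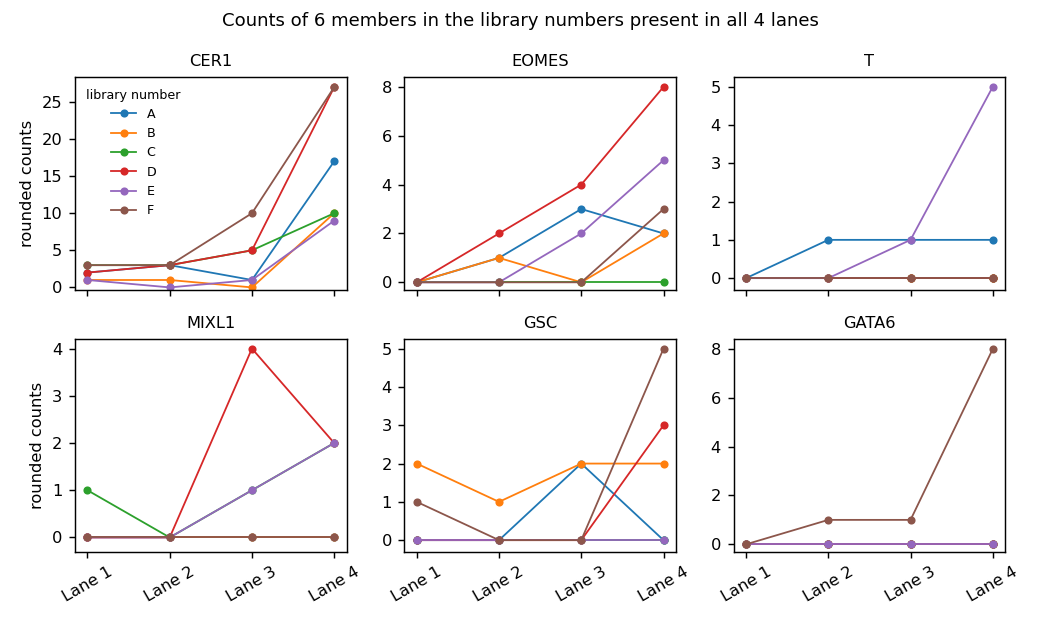
Rounded counts of 6 members in the 6 library numbers present in all 4 lanes, by lane in order of depth. GATA6 counts lie in number F only, with 8 counts in Lane 4, and CER1 reaches 27 counts in numbers D and F.

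One number stood out by how many low members it held; it was picked after its values were seen. Over Lanes 1 to 3 together, that number had counts of 6 of the 8 low members, whereas the other 23 numbers had 1 to 3. Its counts in Lanes 1, 2 and 3 were 0, 4 and 4 for GATA6, 2, 2 and 0 for MESP1, 0, 2 and 1 for T, 1, 1 and 2 for MIXL1, 1, 1 and 0 for EOMES, and 0, 0 and 2 for HAND1. They sum to 23, against 1 to 10 in the 23 others. KDR in this number was at 88.79, 77.87 and 82.35 TPM and CER1 at 1 to 3 counts, both within the range of their lanes.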

How the data were processed

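RNA-seq libraries of H1 were analysed from tables of expected counts and TPM. Per the submitters' processing notes, the authors used CASAVA 1.8.2, Bowtie 0.12.8 and RSEM 1.2.3 with hg19; other settings are not given in the sources used here. The authors deposited expected counts per gene, which RSEM estimates by dividing reads that fit several genes, so near paralogs (MESP1 and MESP2) are uncertain, and TPM, which scales them by transcript length and library total. Members and lists were chosen with earlier results of these data known.

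After rounding, expected counts entered edgeR 4.0.16 (quasi-likelihood test in R 4.3.3, filterByExpr, TMM, no covariates), adjusted by Benjamini-Hochberg over all genes and called below 0.05. Comparisons were H1p43 with H1p16, Lane 4 with all TruSeq libraries, and Lanes 2 to 4 with Lane 1 over shared numbers. Alternatives were no filter, DESeq2 1.42.0, RLE size factors, limma 3.58.1 on log2(TPM + 1) or log2(TPM + 0.1) with a mean of at least 1 TPM, omission of each TruSeq or Lane 4 library, other libraries, and the number as a block. Correlations used log2 CPM with a prior count of 2.

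Detection means at least 1 rounded count; intervals and the floor of 3 counts cover counting error only. Named list genes were up to 3 called genes per list with the lowest adjusted p in H1p43 against H1p16 and up to 2 in Lane 4 against TruSeq, with at least 1 TPM in the higher group. NRP1, TBX6, CDH5, GATA2, TEK, POU5F1, NANOG, SOX2 and TNNT2 (first comparison) were chosen after their values were seen. So were L1TD1, POU5F1 and SOX2 for Lane 4, and list genes named for their low level. Same-numbered libraries deviated together between Lane 1 and Lanes 2, 3 and 4 (correlations of 0.168 to 0.639, 0.226 to 0.551 and 0.359 to 0.437, all above 0.1), so the lanes are paired by number. No libraries of a group agreed within counting noise (lowest chi-square per degree of freedom 1.29). The tests were tested on simulated data.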

Additional observations from a re-analysis of the deposited data

Results flagged for a closer look

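Among the members with counts in Lane 4, 2 had 1 library apart from the other 5 by Dixon's test. The test flags about 1 in 20 groups by chance, but that rate does not hold for values that are mostly 0, where a single library with a count can be set apart whatever its count, so these are given as values only. T was highest in number E at 0.3 TPM (5 counts), with the next library at 0.06 TPM. GATA6 was highest in number F at 0.34 TPM (8 counts), with the others at 0.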

How the results depend on the processing

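KDR kept its direction and its call in H1p43 against H1p16 (log2 fold change -1.0 to -0.97 leaving out each library; -0.85 with limma on log2(TPM + 1)) and in Lane 4 against TruSeq (0.49 to 0.69 leaving out each library) under every alternative run. CER1 was not called in H1p43 against H1p16 by edgeR or DESeq2 (0.29 to 0.38 leaving out each library) and was called with limma on log2(TPM + 1) (0.34) and log2(TPM + 0.1) (0.44); in Lane 4 against TruSeq it ranged from -0.69 to -0.36 leaving out each library. The count of called genes ranged from 9828 to 10470 and from 9493 to 9795 in these comparisons leaving out each library. With limma on log2(TPM + 1), 64.4% of calls in H1p43 against H1p16 were higher, against 50.7% in the main test. Without the filter, the median log2 fold change over all genes in Lane 4 against TruSeq was -0.20, against -0.06.

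H1p16 and H1p43 share only replicate numbers (correlations of 0.0114 to 0.042, and 2 of 3 libraries correlated best with their own number); the replicate block gave 10463 calls and left CER1 uncalled. For the lanes, the replicate block gave 26 calls in Lane 2, 44 in Lane 3 and 13 in Lane 4 against Lane 1, against 0, 0 and 2 without it. KDR, and in Lane 4 also CER1, were the only members fitted there, and neither was called. With all libraries of both lanes the calls were 60 in Lane 3 and 0 in Lane 4, and without the filter 1 in Lane 2. The cause was not tested. Counting only libraries with at least 5 counts, the members per Lane 4 library were 2.83 in place of 4.33. No called value changed sign under these alternatives. Between lanes, the uncalled KDR difference changed sign with all libraries of both lanes (0.03 in Lane 3, -0.03 in Lane 4) and in Lane 4 also with RLE size factors and DESeq2 (-0.01 each). Depth limits the 8 low members: a library of Lane 1 cannot show levels under about 1 count.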
